A study of Mus musculus with 6 samples.

Results

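Of the 19571 array rows with a gene symbol, 923 were mouse chromosome 17 genes kept after some major histocompatibility complex (MHC) genes were left out. They were all rows that the array places on chromosome 17 and that carry a symbol. Symbols starting with H2-, and Tap1, Tap2, Tapbp, Psmb8, Psmb9 and Runx2, were left out, although no row carried the symbol Runx2. Genes were left out by symbol and not by position, so other genes that lie among the MHC genes stayed in. The study asked which genes are linked to Tmem161a, a transmembrane protein gene, in MC3T3-e1 cells, an osteoblast precursor line from mouse calvaria. The groups were Tmem161a-KO MC3T3-e1 cells and the intact WT MC3T3-e1 cells from which they were made. The Tmem161a-KO cells were 1 line, edited with CRISPR/Cas9 and isolated by limited dilution, so the edit and the line that carries it cannot be told apart. Total RNA from 3 samples of each group was hybridized to Clariom S mouse arrays, 1 array a sample. No treatment or time point is given in the labels for either group. The sources do not say whether these were separate cultures, and the spread between them may be technical.

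Chromosome 17 was selected on these same Tmem161a-KO and WT values, because its genes were lower together. Differences of the members between Tmem161a-KO and WT cells are therefore given as a description, and the calls gene by gene, which come from a fit over all rows, support nothing about the chromosome. Differences are on the log2 scale, Tmem161a-KO minus WT, so a negative value is a lower level in Tmem161a-KO cells. A row was called brighter where its mean over all 6 arrays lay above that of the median row with a symbol, and dimmer otherwise. Of the members, 478 were brighter and 445 were dimmer. Bulk RNA cannot tell a lower level in every cell apart from a lower share of cells with that RNA. Only RNA was measured.

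The arrays differed slightly between the groups. Median intensities over all rows were 204 to 208 in the Tmem161a-KO arrays and 214 to 215 in the WT arrays. Upper quartiles were 1439 to 1455 in the Tmem161a-KO arrays and 1379 to 1393 in the WT arrays. Lower quartiles were 62.0 to 64.1 in the Tmem161a-KO arrays and 65.4 to 66.3 in the WT arrays. The groups did not overlap in any of these measures. The part of this in the differences below was not tested. The Tmem161a row, on chromosome 8, gave 967 ± 32.7 in Tmem161a-KO cells and 1148 ± 84.3 in WT cells (SD, n = 3 each; adjusted p = 0.192, limma). Small deletions need not remove RNA, and where the probes lie relative to them was not examined. Of 8 listed osteoblast lineage markers 6 were measured, and Runx2 and Spp1 had no row with that symbol. Of the 6, 4 were above background (Sp7, Col1a1, Col1a2 and Bglap), while Alpl and Ibsp were not. Sp7, an osteoblast transcription factor, was 849 ± 154 in Tmem161a-KO cells and 174 ± 12.1 in WT cells. The log2 differences of Col1a1 (-0.16), Col1a2 (-0.11) and Bglap (-0.30) were below 0 and did not pass the test. The summed level of the 6 was 312416 to 365310 in the Tmem161a-KO arrays and 356039 to 377497 in the WT arrays. Nearly all of this sum was Col1a1 and Col1a2, so it does not show the other markers. All 4 adipocyte markers were at background. Summed marker intensities for macrophages and osteoclasts, of which only Ctsk and Acp5 were above background, were 2127 to 2656 in the Tmem161a-KO arrays and 2884 to 3009 in the WT arrays. The cartilage sum, in which Acan, Col2a1 and Comp were above background, was 960 to 1102 in the Tmem161a-KO arrays and 1422 to 1799 in the WT arrays. Col2a1 passed the test as lower (-0.82). Among muscle markers only Myog was above background, and it did not pass. Ckm, at background, passed as lower (-0.48). The part of these marker genes in the results below was not tested.

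Mouse chromosome 17 carries the t-complex near its centromere and the MHC. Its genes share a chromosome but no common function. They include Cdkn1a, the cell cycle inhibitor p21, Dusp1, a phosphatase that switches off MAP kinases, and many ribosomal, splicing and mitochondrial genes that every cell uses. Neighbours on a chromosome are usually transcribed from promoters of their own. A promoter rich in CpG dinucleotides is typical of genes that most cells use.

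Promoter sequence is shown for the matched genes among those furthest from the rest (Clip4, Daam2, Cyp1b1 and Tmem181a), for Dusp1, which lay just short of that distance and was picked for its motifs, for Cdkn1a, which the selection named, and for Rps18, which did not depart. RefSeq promoters of GRCm38.p6, with 250 bases before and 50 after a gene's start, were matched by gene identifier for 768 of the 923 members. Where several starts were listed for a gene, only the first was used, which need not be its main start. Both strands were searched for the TATA box (TATAAA), the CCAAT box (CCAAT), the GC box (GGGCGG), the cyclic AMP response element (TGACGTCA), the AP-1 site (TGANTCA) and the E box (CACGTG). Capitals mark every match, and adjoining or overlapping matches run together. Clip4 lies at chr17:71769441-71769740 (plus strand), Daam2 at chr17:49564288-49564587 (minus strand), Dusp1 at chr17:26508423-26508722 (minus strand), Cyp1b1 at chr17:79715012-79715311 (minus strand), Tmem181a at chr17:6256610-6256909 (plus strand), Cdkn1a at chr17:29090729-29091028 (plus strand) and Rps18 at chr17:33955616-33955915 (minus strand).
Clip4: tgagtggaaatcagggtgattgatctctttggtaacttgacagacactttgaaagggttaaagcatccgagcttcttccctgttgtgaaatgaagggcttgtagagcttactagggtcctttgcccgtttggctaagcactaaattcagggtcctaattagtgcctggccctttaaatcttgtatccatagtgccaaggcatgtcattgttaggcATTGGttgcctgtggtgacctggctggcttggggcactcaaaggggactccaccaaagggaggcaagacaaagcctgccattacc
Daam2: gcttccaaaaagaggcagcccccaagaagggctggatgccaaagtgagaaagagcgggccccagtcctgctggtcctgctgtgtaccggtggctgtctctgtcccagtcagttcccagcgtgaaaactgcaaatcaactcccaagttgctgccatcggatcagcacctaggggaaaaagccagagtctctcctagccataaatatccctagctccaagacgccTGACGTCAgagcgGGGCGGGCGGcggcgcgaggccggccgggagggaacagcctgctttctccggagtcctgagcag
Dusp1: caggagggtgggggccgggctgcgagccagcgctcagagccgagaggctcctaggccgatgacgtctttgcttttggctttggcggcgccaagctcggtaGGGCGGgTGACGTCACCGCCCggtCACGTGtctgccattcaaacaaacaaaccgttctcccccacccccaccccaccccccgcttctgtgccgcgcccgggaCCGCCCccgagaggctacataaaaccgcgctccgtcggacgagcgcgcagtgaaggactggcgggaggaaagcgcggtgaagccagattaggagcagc
Cyp1b1: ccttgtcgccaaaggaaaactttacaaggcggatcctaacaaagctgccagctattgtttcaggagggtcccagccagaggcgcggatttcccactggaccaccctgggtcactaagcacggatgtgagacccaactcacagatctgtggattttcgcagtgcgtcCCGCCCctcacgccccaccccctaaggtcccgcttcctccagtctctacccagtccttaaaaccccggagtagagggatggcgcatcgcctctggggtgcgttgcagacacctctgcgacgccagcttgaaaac
Tmem181a: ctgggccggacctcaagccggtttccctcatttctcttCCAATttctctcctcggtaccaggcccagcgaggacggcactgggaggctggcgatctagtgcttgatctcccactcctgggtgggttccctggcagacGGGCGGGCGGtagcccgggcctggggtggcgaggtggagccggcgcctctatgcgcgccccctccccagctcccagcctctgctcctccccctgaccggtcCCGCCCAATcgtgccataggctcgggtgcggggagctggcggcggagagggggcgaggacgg
Cdkn1a: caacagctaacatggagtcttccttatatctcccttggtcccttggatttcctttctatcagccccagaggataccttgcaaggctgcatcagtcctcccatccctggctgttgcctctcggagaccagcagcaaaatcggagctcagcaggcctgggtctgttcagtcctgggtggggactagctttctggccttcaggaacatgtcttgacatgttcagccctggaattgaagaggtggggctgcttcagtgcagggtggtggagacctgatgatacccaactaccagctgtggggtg
Rps18: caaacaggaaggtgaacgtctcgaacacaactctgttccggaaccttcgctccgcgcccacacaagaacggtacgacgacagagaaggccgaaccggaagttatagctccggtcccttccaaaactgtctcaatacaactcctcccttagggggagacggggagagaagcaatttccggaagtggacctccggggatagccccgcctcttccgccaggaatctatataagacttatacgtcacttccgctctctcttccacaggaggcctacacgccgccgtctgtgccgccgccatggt
The Daam2 and Dusp1 windows each held TGACGTCA, and in Dusp1 it stood between GC boxes and next to an E box. Of the 8 promoters found among the 13 members over 1.5-fold below the common shift, these were the 2 with that element. It stood in 5% of the 320 promoters of members on the shift. The share was 2.42% over the 15690 promoters of genes measured on the arrays and 1.88% over all 27025 promoters of the table. GC boxes stood in 62.5% of the 8 promoters and in 66.9% of those on the shift. They stood in 48.2% of those of measured genes and in 35.9% of all promoters. The median ratio of observed to expected CpG was 0.67 over the 8 promoters below the shift and 0.26 over the 4 found above it. It was 0.80 over the promoters on the shift, 0.58 over all members found, 0.61 over measured genes and 0.39 over the whole table. The Clip4 window held a CCAAT box and no other of these motifs, and its CpG ratio was 0.12. The windows shown for Cdkn1a and Rps18, each at the first listed start, held none of these motifs. Any other starts of these genes were not searched. A match is a description of the sequence and not a measured binding site. Xdh, Sik1, Cyp39a1, Socs5, Flot1, Lama1, Calm2, Tmem181b-ps and Tmem181c-ps were not matched.

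The brighter members were lower in Tmem161a-KO cells as a body. Their median log2 difference was -0.18, which is 88.3% of the WT level. It was -0.24 with quantile normalization and -0.12 with arrays centred, settings in which brighter rows of the other chromosomes had medians of 0.02 and 0.14. As deposited, those rows had a median of 0.08, so the members had a relative difference of -0.26, or 83.7%. Of the 478 brighter members, 391 (81.8%) had a difference below 0, against 38.1% of the 9288 brighter rows elsewhere. The quartiles were -0.33 and -0.05 for the members and -0.10 and 0.24 for the other chromosomes. The whole distribution was displaced, with most members close to its centre.

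**Figure D1:**
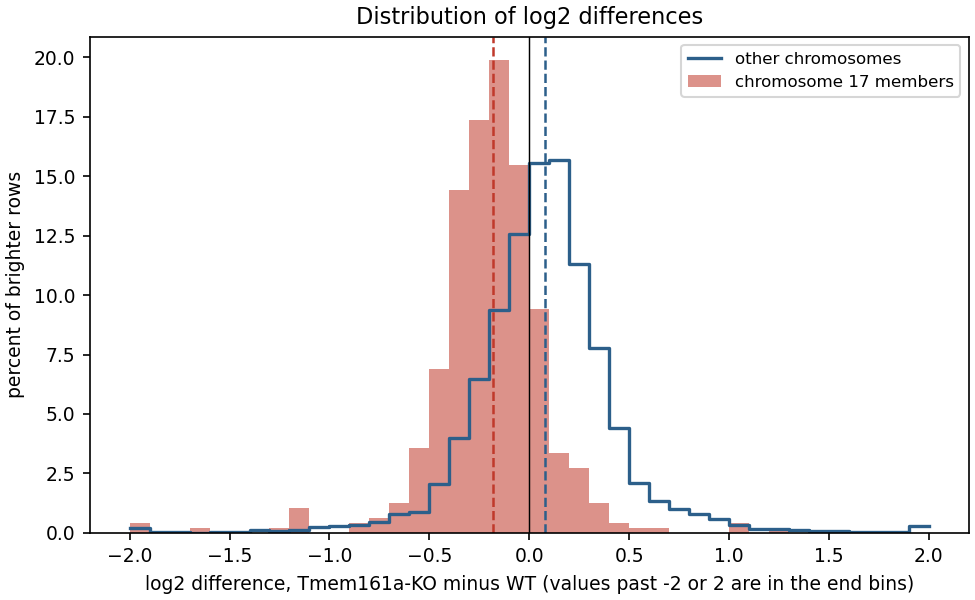
Percent of brighter rows (vertical axis) in each bin of 0.1 of the log2 difference, Tmem161a-KO minus WT (horizontal axis). Filled bars are the 478 chromosome 17 members and the outline is the 9288 rows of the other chromosomes. Dashed lines mark the medians, -0.18 for the members and 0.08 for the others.

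The displacement was close to the same in every array. For each array, the median deviation of brighter members from their own mean over 6 arrays was taken, minus the same median on the other chromosomes. It averaged -0.124 ± 0.00266 in the Tmem161a-KO arrays and 0.123 ± 0.00398 in the WT arrays (SD, n = 3 each). The Tmem161a-KO arrays ranged over -0.127 to -0.122 and the WT arrays over 0.119 to 0.127, with no overlap. Since deviations are from a mean over the same 6 arrays, the values of the groups mirror each other. Each of the 9 pairs of a Tmem161a-KO and a WT array gave a difference of -0.27 to -0.24. Pairs within a group gave -0.02 to 0.01. The chromosome was selected on these arrays, so nothing is read from the gap between the groups. Dimmer members showed little of this, at -0.0171 ± 0.00515 in the Tmem161a-KO arrays and 0.0118 ± 0.00787 in the WT arrays. Their median log2 difference was -0.08, against -0.06 for dimmer rows elsewhere. Background was set at the 95th percentile of the rows for olfactory receptors, an intensity of 100.1, and 305 of the dimmer members were below it. The 140 dimmer members above background also showed little of the shift. Their median was -0.12, against -0.11 for dimmer rows above background on the other chromosomes.

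**Figure D2:**
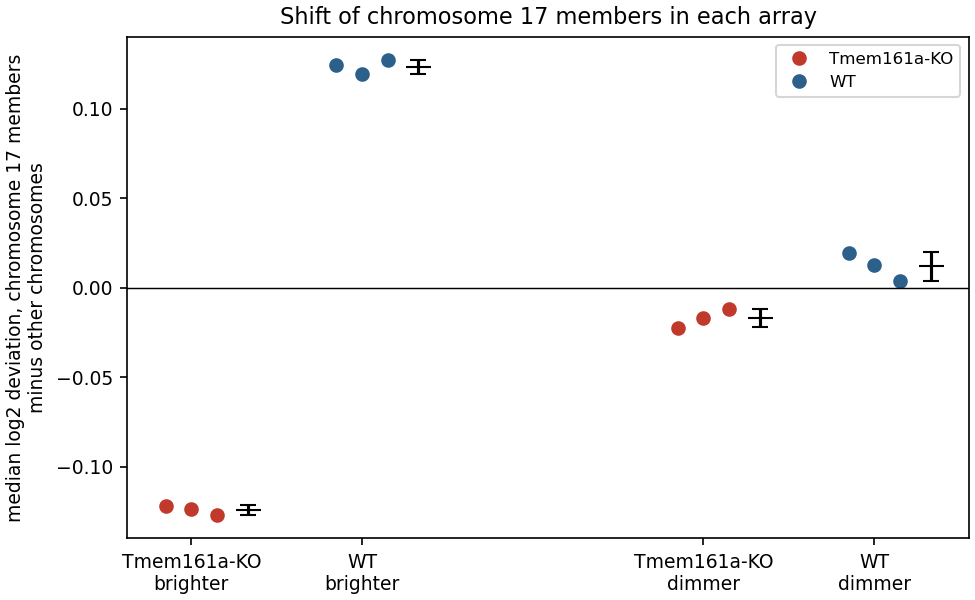
Median log2 deviation of chromosome 17 members minus that of the other chromosomes (vertical axis) in each of the 6 arrays, for brighter and dimmer members. Points are arrays, and black bars are the mean and SD of 3 arrays. The brighter members of the Tmem161a-KO arrays sit at -0.127 to -0.122 and those of the WT arrays at 0.119 to 0.127.

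Level made little difference among the brighter members. The brighter rows were cut by level into 5 classes. With the lowest class first, the median log2 difference of members minus that of other chromosomes was -0.17, -0.26, -0.29, -0.27 and -0.26. Of these only the dimmest class stood nearer to 0. The replicates of members were as tight as those of other genes, with a median SD of 0.139 on the log2 scale against 0.141. Among the other numbered chromosomes and X, the same relative median ran between -0.09 on chromosome 15 and 0.12 on chromosome 12, except for 0.60 on chromosome 14. Rows of chromosome 17 without a symbol were also lower. Of 106 such rows, 49 were above the median row, 41 of these had a difference below 0, and their median was -0.22. In the fit over all 22205 rows, 9 of the 106 were called lower and 1 higher, where 4.09% of all rows were lower and 5.38% higher.

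The shift ran the length of the chromosome. The brighter members were cut into 20 groups of 23 or 24 consecutive genes. All 20 group medians were below 0, and they ran between -0.25 and -0.07. Between 58.3% and 95.8% of the genes of a group had a difference below 0. The group with the lowest median lay between Gpr108 and Tgif1. The next group, between Myl12b and Fez2, had the highest median, and it also held Clip4 and Xdh, the members furthest below. A pair of groups between Atp6v0e and Pknox1 had medians of -0.08 and -0.09, and Cdkn1a lies there. The group most uniform in sign lay between Dxo and Gtf2h4, where MHC genes also lie, and 23 of its 24 genes were below 0. The longest run of genes below the median of the other chromosomes was 31, between Akap8 and Ring1. The longest run above it was 2 genes, Nubp2 and Spsb3.

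**Figure D3:**
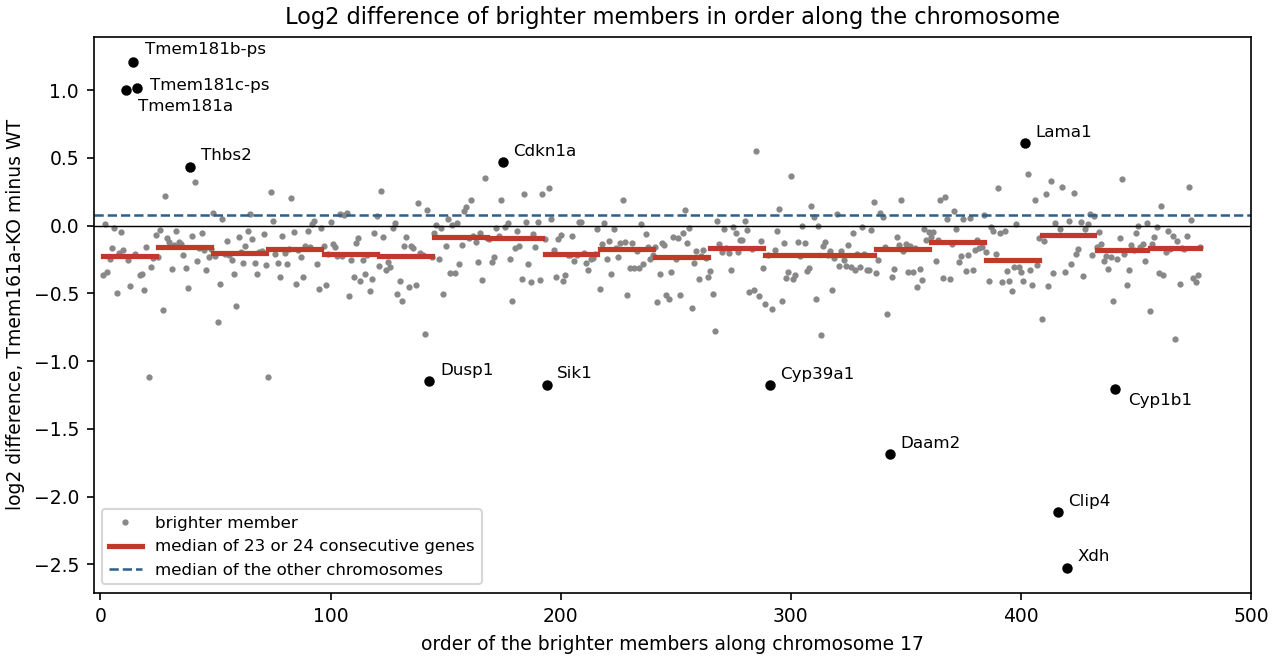
Log2 difference, Tmem161a-KO minus WT (vertical axis), of the 478 brighter members in their order along chromosome 17 (horizontal axis). Grey points are genes, red bars are medians of 23 or 24 consecutive genes, and the dashed line is the median of the other chromosomes, 0.08. All 20 bars lie below 0, and the named genes in black stand away from them.

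Calls gene by gene caught a small share of the members. With limma and Benjamini-Hochberg adjustment over all 19571 rows, 75 members (8.13%) were lower and 10 (1.08%) were higher at an adjusted p under 0.05. Over all rows, 4.17% were lower and 5.73% were higher. Since chromosome 17 was selected on this comparison, nothing is read from these shares. The other 838 members passed in neither direction. Of the lower calls 61 were brighter members, and of the higher calls 7 were. In 265 members (28.7%) all 3 Tmem161a-KO arrays lay below all 3 WT arrays, against 14.4% of all rows. In 28 members (3.03%) all 3 lay above, against 14.5% of all rows. Of the lower calls 10 were at least 2-fold, namely Xdh, Clip4, Daam2, Nudt12, Cyp1b1, Cyp39a1, Sik1, Dusp1, Fndc1 and Hcfc1r1. By contrast, 11 of the lower calls lay within 0.25 of the common shift. Of all 85 calls, 34 were kept with each array left out in turn and 51 were lost with at least 1 left out. Where such a loss is given below, the values in parentheses are the log2 differences without those arrays.

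A member was counted on the shift where its difference lay within 0.25 of the members' median of -0.18. This window also takes in members with no difference or a slightly positive one, such as Kctd20 (-0.02) and Trim39 (0.04). A member on the shift was therefore not always lower. Of the brighter members, 368 (77.0%) were, while 64.9% of brighter rows elsewhere lay within 0.25 of their pooled median. That pool mixes chromosomes with different medians, chromosome 14 among them, so these shares are not like measures. A further 57 lay below this window and 53 above it. The 8 members closest to the shift among the 100 brightest came from different cell functions. Rps18, a protein of the small ribosomal subunit, gave 106004, 101130.0 and 107020.0 in the Tmem161a-KO arrays, against 123621, 123171 and 105773 in the WT arrays. The lowest WT array lay inside the Tmem161a-KO range, and the difference was -0.16 (SE 0.11). Calm2, which encodes the calcium sensor calmodulin, gave 67188, 60234 and 70139 in the Tmem161a-KO arrays, against 71404, 73424 and 76117 in the WT arrays. Its groups did not overlap, at -0.16 (SE 0.11). Khsrp, an RNA-binding protein that speeds mRNA decay, gave 14342, 15610.0 and 12133 in the Tmem161a-KO arrays, against 16626, 15327 and 15077 in the WT arrays. Here the groups overlapped, at -0.17 (SE 0.12). Elob, the elongin B subunit of ubiquitin ligases, was at -0.20. Cox7a2l, a factor of respiratory supercomplexes, was at -0.16. Agpat1, an enzyme of phospholipid synthesis, was at -0.19, and Tulp4 at -0.18. Cdsn, known as a skin desmosome protein, had the same central value (-0.18) but a wide spread, with 17101, 42611 and 28882 in the Tmem161a-KO arrays, against 23075, 37136 and 35849 in the WT arrays.

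The mitochondrial ribosomal proteins (Mrp) numbered 8, all were brighter, all 8 were on the shift, and their median was -0.21. Of 6 cytosolic ribosomal protein genes 5 were brighter, all 5 were on the shift, and their median was -0.16. The zinc finger genes named Zfp numbered 46. Of these 33 were brighter, with a median of -0.20, and 28 were on the shift. Nearly all olfactory and vomeronasal receptor genes were dim. Of 49 Olfr members 1 was brighter, and of 30 Vmn2r members none was. Some of these family members are near-identical in sequence, and their rows may share signal.

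Of the 478 brighter members, 7 lay over 1 from the common shift on the log2 scale with groups that did not overlap once the shift was taken off. That was 1.46% of them, and 2.21% of brighter rows elsewhere lay over 1 from the pooled median of the other chromosomes. Below the shift stood 4 genes, namely Xdh, Clip4, Daam2 and Cyp1b1. Above it stood 3 rows of 1 gene family, Tmem181.

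Xdh was lowest of all members. It encodes xanthine dehydrogenase, the last enzyme of purine breakdown to uric acid. It gave 946, 1097 and 882 in the Tmem161a-KO arrays, against 5994, 6628 and 4391 in the WT arrays. The lowest WT array stood far above the highest Tmem161a-KO array, and Tmem161a-KO cells held 17.4% of the WT level, a log2 difference of -2.52 (SE 0.15). Clip4, a CAP-Gly protein of the microtubule-binding CLIP family, gave 184, 254 and 263 in the Tmem161a-KO arrays, against 857, 1138 and 1020.2 in the WT arrays. The groups were again far apart, at -2.11 (SE 0.15). Daam2, a formin that acts in Wnt signalling and actin assembly, gave 3201, 3293 and 2408 in the Tmem161a-KO arrays, against 10873, 9608 and 8110.4 in the WT arrays. It was at 31.1% of the WT level, or -1.69 (SE 0.14). Cyp1b1, a cytochrome P450 that the aryl hydrocarbon receptor induces, gave 4162, 4499.9 and 5221 in the Tmem161a-KO arrays, against 9948, 10724 and 11199.9 in the WT arrays. Its WT arrays agreed closely with each other, and the difference was -1.20 (SE 0.12).

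Just short of that distance lay 3 further members. Cyp39a1, an oxysterol hydroxylase of bile acid synthesis, averaged 747 ± 140.3 in Tmem161a-KO cells and 1691 ± 339.8 in WT cells (SD, n = 3 each) at a distance of -0.997 from the shift. Sik1, a salt-inducible kinase that cyclic AMP induces, averaged 1558 ± 119 in Tmem161a-KO cells and 3511 ± 230.5 in WT cells. Dusp1, an early response gene, gave 7574, 11035 and 7029.6 in the Tmem161a-KO arrays, against 16737, 13778 and 27698 in the WT arrays. Its WT arrays were the most scattered of these genes, and all lay above the highest Tmem161a-KO array. The 3 genes held 44.2%, 44.3% and 45.1% of the WT level.

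At a distance of 0.58, or 1.5-fold, the members below the shift numbered 13. The others were Fndc1 (-1.12), Hcfc1r1 (-1.12), Socs5 (-0.84), Dnph1 (-0.80), Fam234a (-0.80) and Flot1 (-0.78). Socs5 is a suppressor of cytokine signalling, Dnph1 a nucleotide hydrolase and Flot1 a lipid raft protein. Flot1 had very even arrays, with 4858, 4756 and 4670.4 in the Tmem161a-KO arrays, against 8099.6, 7798 and 8571 in the WT arrays. All 13 had passed the limma call as lower. Dusp1 no longer passed with an intensity trend and robust eBayes, and the others named by rule, namely Xdh, Clip4, Daam2, Cyp1b1, Cyp39a1, Sik1, Fndc1, Socs5 and Flot1, kept the call in every alternative fit with limma.

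**Figure D4:**
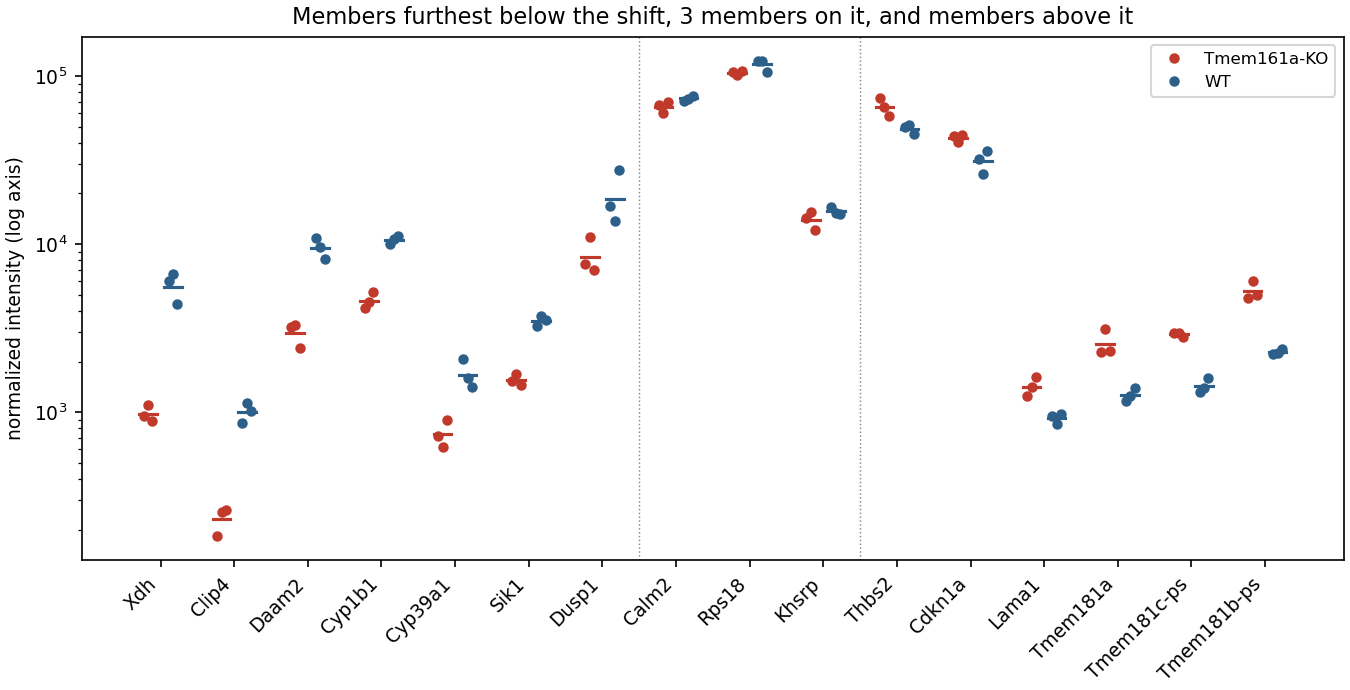
Normalized intensity on a log axis (vertical) of 16 members, with the 3 Tmem161a-KO arrays left of the 3 WT arrays for each gene. Lines mark the mean of the log2 values. The left block holds the members furthest below the common shift, the middle block 3 members on it and the right block members above it. Xdh, Clip4, Daam2 and Cyp1b1 show a wide gap, and the Tmem181 rows show one in the other direction.

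The members above the shift were fewer. Tmem181b-ps gave 4792, 6020.2 and 5006 in the Tmem161a-KO arrays, against 2216, 2234 and 2367 in the WT arrays. It was higher in Tmem161a-KO cells by 1.21 (SE 0.12). Tmem181c-ps gave 2941, 2946 and 2814 in the Tmem161a-KO arrays, against 1324, 1395 and 1592 in the WT arrays, a difference of 1.02 (SE 0.11). Tmem181a gave 2280.4, 3112 and 2315 in the Tmem161a-KO arrays, against 1163, 1254 and 1400.5 in the WT arrays, a difference of 1.003 (SE 0.14). The groups did not overlap in any of the 3 rows. These rows are 1 gene and pseudogenes of it, and the signal on the row of a copy may come from another copy, so a count of 3 genes is uncertain. They lie among copies of Dynlt1, a dynein light chain, at places 15 to 20 of the 923 members. Dynlt1a was at -0.25, Dynlt1b at -0.44, Dynlt1c at -0.21 and Dynlt1f at -0.36. All 4 of these neighbours were below 0.

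At a distance of 0.58 there were 7 members above the shift. The additional ones were Lama1, Zfp57, Cdkn1a and Thbs2. Lama1, the alpha 1 chain of laminin, gave 1241, 1404 and 1613 in the Tmem161a-KO arrays, against 951, 851 and 972 in the WT arrays, at 0.61 (SE 0.12). Cdkn1a, the p21 inhibitor of cyclin-dependent kinases and a p53 target, gave 44243, 40739 and 44312 in the Tmem161a-KO arrays, against 32274, 26051 and 35760.5 in the WT arrays. Its groups did not overlap. It was at 138% of the WT level, a difference of 0.47 (SE 0.13) and 0.65 above the common shift. It passed the call as higher, but not with quantile normalization (0.40) and not with any of 4 arrays left out, namely Tmem161a-KO replicate 1 or 3 or WT replicate 1 or 2. Thbs2, thrombospondin 2 of the matrix, gave 74449, 65642 and 57984 in the Tmem161a-KO arrays, against 49619.6, 51023 and 45306 in the WT arrays, at 0.43 (SE 0.12). Its call as higher was lost with quantile normalization and with each array left out except Tmem161a-KO replicate 3. Cdkn1a and Thbs2 were among the brightest members. Zfp57, a zinc finger protein that keeps imprints in the embryo, averaged 1565 ± 182 in Tmem161a-KO cells and 1091 ± 321 in WT cells. Its groups overlapped, and it did not pass the call.

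The surroundings of Cdkn1a lay nearer to 0 than most members did. Before it in order stood Kctd20 (-0.02), the kinase gene Stk38 (-0.08) and the splicing factor gene Srsf3 (0.19). After it stood Cpne5 (-0.09, dimmer), Ppil1 (-0.01) and BC004004 (0.02). None of the 6 passed the call, and Kctd20, Ppil1 and BC004004 changed sign in some alternatives. Srsf3, the nearest, gave 14073, 12774 and 14554 in the Tmem161a-KO arrays, against 11180.3, 12552 and 12574 in the WT arrays, with groups that did not overlap. The next brighter gene beyond them, Mtch1, was at -0.25. The surroundings of Xdh were mixed. Capn13 and Ehd3 were dimmer, and Galnt14, also dimmer, was lower at -0.59 (SE 0.12). After Xdh, Memo1 was at 0.04, Dpy30 at -0.28 and the microtubule-severing gene Spast at 0.24. None of these 3 passed the call. Clip4 lies 8 places before Xdh among the members, and between them the brighter Ypel5 (-0.03), Lbh (0.28) and Lclat1 (-0.34) were not lower to that extent.

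Among the functional lists, the inducible and immediate early genes had the lowest median. Of 14 members 12 were brighter, with a median of -0.38, against 0.08 for brighter rows of the other chromosomes. Only 2 were on the shift, namely Srf and Zfp36l2, while 6 lay further below and 4 above. Dusp1, Pim1, Sik1, Cyp1b1 and Socs5 fell, and Cdkn1a passed as higher. Among all members 8.13% were called lower and 1.08% higher, and among all rows 4.17% and 5.73%. The lists were chosen with earlier results of these data known. Nothing is therefore read from the calls or medians of this or any other list. Pim1, a serine/threonine kinase gene, averaged 1973 ± 297 in Tmem161a-KO cells and 2887 ± 242 in WT cells, and lost its call without Tmem161a-KO replicate 2 or WT replicate 1 (-0.51 to -0.44). Srf, the serum response factor gene, was at -0.15 (SE 0.14). Vegfa (0.37), the angiogenic growth factor, Fkbp5 (0.35), a co-chaperone that glucocorticoids induce, and Tnfrsf12a (0.25), the TWEAK receptor, lay above the window and did not pass the call. This list overlaps others, since genes such as Dusp1, Cdkn1a and Cyp1b1 stand in another list too.

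Most signalling kinases, phosphatases and their partners kept close to the shift. Of 26 members 25 were brighter, at a median of -0.19. Of these 22 were on it, Dusp1 and Tsc2 lay further below and Arhgap28 above. Ptprs (-0.39), a receptor phosphatase, and Tsc2 (-0.47), a brake on mTORC1, fell with Dusp1. Both Ptprs and Tsc2 lost the call with arrays centred. Ptprs also lost it with the replicate block and without Tmem161a-KO replicate 1 or 3 or WT replicate 1, 2 or 3 (-0.40 to -0.34), and Tsc2 without Tmem161a-KO replicate 3 or WT replicate 1, 2 or 3 (-0.50 to -0.34). Arhgap28 passed as higher and averaged 3531 ± 90.3 in Tmem161a-KO cells and 2713 ± 165 in WT cells. That call was lost with quantile normalization, with the replicate block and with any array left out. Mlst8 (-0.16), an mTOR partner, and Ppp2r5d (-0.19), a PP2A subunit, lay almost on the shift. Cell cycle and DNA repair genes gave a median of -0.16 over 20 brighter members, of which 18 were on the shift. Apart from Cdkn1a, only Cul7, a cullin scaffold, passed the call, with 9981, 10941 and 10225 in the Tmem161a-KO arrays, against 17681, 14519.9 and 11768 in the WT arrays. Cul7 no longer passed with arrays centred, or with any array left out except WT replicate 3. The mismatch repair gene Msh6 (-0.17) and the chromatin assembly gene Chaf1a (-0.16) lay at the centre.

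For splicing and RNA binding, 14 of 20 brighter members were on the shift, at a median of -0.12, and 0 members passed the limma call (3 at an unadjusted p under 0.05, and 0 by the methods' test after adjustment). The other 6 all lay above the window, such as Qk (0.22) and Safb2 (0.21). For ribosome and translation, 22 of 25 were on it, at a median of -0.16, and again 0 passed the limma call (4 at an unadjusted p under 0.05, and 0 by the methods' test after adjustment). Mrpl2 (-0.19) and Abcf1 (-0.19) lay at the centre, and Rrp1b (0.28), which acts in ribosome assembly, was highest. For chromatin and transcription, 27 of 36 were on it, at a median of -0.14. Supt3 (-0.62), of the SAGA complex, Nelfe (-0.56), of the elongation factor NELF, and Tead3 (-0.41), a Hippo pathway factor, fell. The call was lost for Supt3 without Tmem161a-KO replicate 3 or WT replicate 2 (-0.58 to -0.44), and for Tead3 with arrays centred and without Tmem161a-KO replicate 1 or 3 or WT replicate 1, 2 or 3 (-0.42 to -0.32). Nelfe gave 2885, 3073 and 2704 in the Tmem161a-KO arrays, against 4219.9, 4278 and 4292 in the WT arrays, with tight WT values well above the others. Smchd1, which acts in X inactivation, was at 0.33 (SE 0.16) and did not pass.

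**Figure D5:**
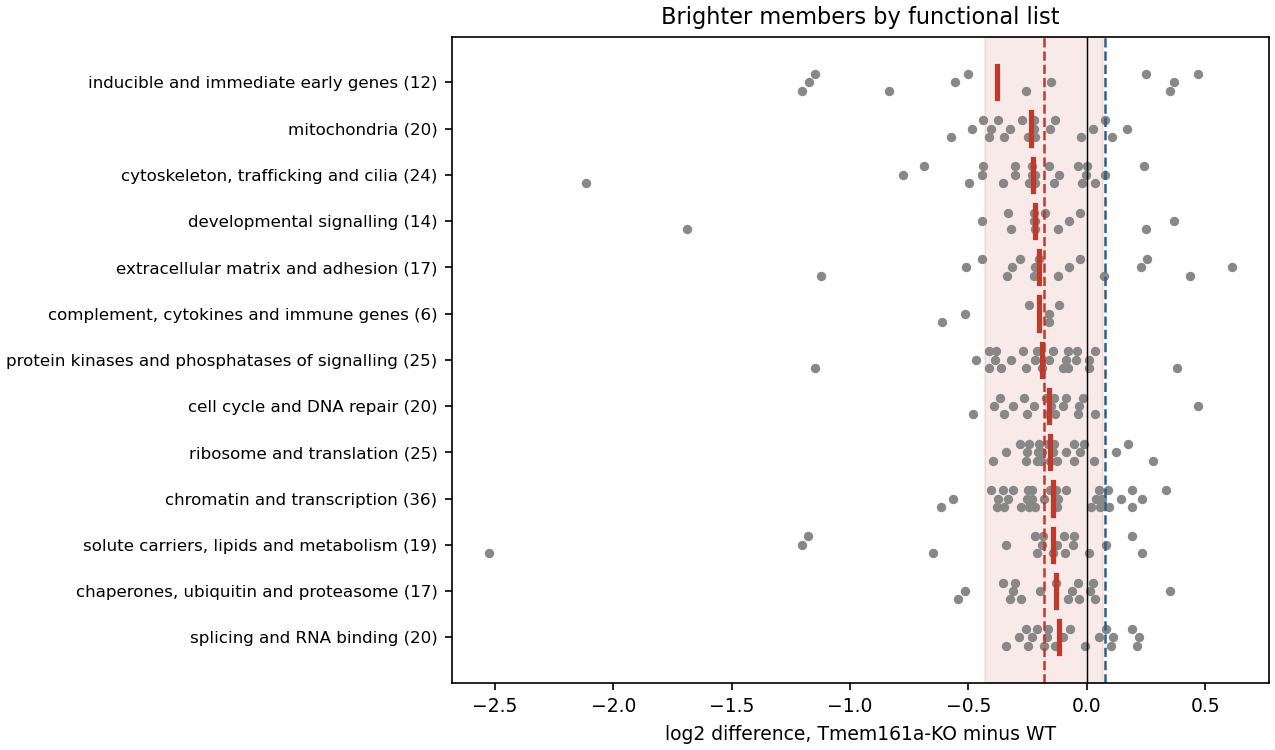
Log2 difference, Tmem161a-KO minus WT (horizontal axis), of brighter members in 13 functional lists (rows, with the number of brighter members). Grey points are genes, red bars are list medians, the shaded band is within 0.25 of the common shift of -0.18 and the blue dashed line is the median of the other chromosomes, 0.08. Every list median lies inside the band, and the inducible genes have the fewest members in it.

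The list of mitochondrial genes, which also held genes of other compartments such as Decr2, had a median of -0.24 over 20 brighter members. Of these 14 were on the shift. Ndufv2, a complex I subunit, was at 71.5% of the WT level, or -0.48 (SE 0.13), and passed as lower, but not with arrays centred or with any array left out except Tmem161a-KO replicate 3. Mmut (-0.58), methylmalonyl-CoA mutase, Decr2 (-0.44), a dienoyl-CoA reductase of peroxisomes, and Glo1 (-0.41), which detoxifies methylglyoxal, fell as well. The call was lost for Mmut without WT replicate 2 (-0.48), for Decr2 without Tmem161a-KO replicate 1 or 3 or WT replicate 1 or 2 (-0.44 to -0.39), and for Glo1 with arrays centred and without Tmem161a-KO replicate 1 or 2 or WT replicate 1, 2 or 3 (-0.42 to -0.36). Sod2, the manganese superoxide dismutase, gave 4473, 4397 and 4134 in the Tmem161a-KO arrays, against 5054, 5025 and 5029.7 in the WT arrays. Its groups did not overlap, yet at -0.22 it did not pass the call. Chaperone, ubiquitin and proteasome genes had a median of -0.13, with 14 of 17 on the shift. The pair that fell, Hspa1a (-0.54) and Hspa1b (-0.51), are near-identical heat shock genes whose rows may share signal. Hspa1a lost its call without Tmem161a-KO replicate 3 or WT replicate 2 or 3 (-0.49 to -0.45), and Hspa1b without Tmem161a-KO replicate 1 or 3 or WT replicate 2 or 3 (-0.52 to -0.40).

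Calls among matrix and adhesion genes went both ways. Over 17 brighter members the median was -0.20, and 9 were on the shift. Of 25 members in all, Emilin2 (-0.44), Col11a2 (-0.51), Fndc1 and Galnt14 fell, while Thbs2, Lama1 and Vit rose. Over all members 8.13% were called lower and 1.08% higher, and over all rows 4.17% and 5.73%. Emilin2 lost its call with arrays centred and without Tmem161a-KO replicate 1 or 3 or WT replicate 2 or 3 (-0.44 to -0.36). Col11a2, a chain of cartilage collagen XI, averaged 959 ± 4.47 in Tmem161a-KO cells and 1372 ± 178 in WT cells, and lost its call without WT replicate 2 (-0.41). Vit, or vitrin, a matrix protein, was a dimmer member with 207, 275 and 344 in the Tmem161a-KO arrays, against 110.3, 72.0 and 94.4 in the WT arrays. All its Tmem161a-KO arrays were above every WT array, and its WT mean of 92.2 was below background, beside its difference of 1.57. Developmental signalling genes had a median of -0.22 over 14 brighter members, with 10 on the shift. Daam2 fell. Npw (-0.44), a neuropeptide gene, passed as lower, but not with arrays centred or without Tmem161a-KO replicate 1 or 3 or WT replicate 1, 2 or 3 (-0.48 to -0.38). Axin1 (-0.22), a scaffold of beta-catenin destruction, lay near the centre.

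Solute carrier and metabolic genes had a median of -0.14 over 19 brighter members, with 12 on the shift. Of 34 members in all 6 fell, where 8.13% of all members and 4.17% of all rows did, and Xdh, Cyp1b1 and Cyp39a1 were among them. Mocs1, which acts in making the molybdenum cofactor, gave 5316, 6344 and 5569 in the Tmem161a-KO arrays, against 9887, 8580.4 and 8563 in the WT arrays. The groups were apart, at -0.65 (SE 0.12). Slc37a1 (-0.57) and Abca3 (-0.66) were dimmer. Xanthine dehydrogenase is itself an enzyme that carries the molybdenum cofactor. Cytoskeleton and trafficking genes had a median of -0.23 over 24 brighter members, with 16 on the shift. Clip4, Flot1, Myl12b, Synj2, Epb41l3 and Dynlt1b fell. The call was lost for Synj2 without WT replicate 3 (-0.41), for Dynlt1b without Tmem161a-KO replicate 1 or 2 or WT replicate 1 or 2 (-0.46 to -0.39), and for Epb41l3 with arrays centred and without Tmem161a-KO replicate 1 or 3 or WT replicate 2 or 3 (-0.44 to -0.38). Myl12b, a regulatory light chain of non-muscle myosin, averaged 17462 ± 1856 in Tmem161a-KO cells and 28058 ± 2267 in WT cells. Synj2 (-0.50) is a phosphoinositide phosphatase, and Epb41l3 (-0.44) links membrane to actin.

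Genes of immune cells and of other tissues were mostly dim. Of 27 immune members 6 were brighter, at a median of -0.20. Lta (-0.61), lymphotoxin, Ly6g6d (-0.51) and the dimmer Trem2 (-0.55), a myeloid receptor, fell. Ly6g6d lost its call without Tmem161a-KO replicate 2 or 3 or WT replicate 1 (-0.49 to -0.44). Of 31 members restricted to other lineages 2 were brighter, Cdsn and Tpsb2 (0.07), and Tff1 (-0.47), a trefoil factor at low intensity, passed as lower. That call was lost with either scaling, with all rows, with the replicate block and without Tmem161a-KO replicate 1 or 3 or WT replicate 1, 2 or 3 (-0.51 to -0.33). Among 14 measured members that mark other cells, Trem2, Ltb, Tff1 and Tff2 were above background. The summed level of all 14 was 1046 to 1137 in the Tmem161a-KO arrays and 1255 to 1297 in the WT arrays. Besides Vit, the dimmer members that rose were Fbxl16, an F-box protein gene, and Mdfi, an inhibitor of myogenic factors. Fbxl16 gave 259.7, 197 and 241 in the Tmem161a-KO arrays, against 110.1, 88.3 and 125 in the WT arrays. Mdfi gave 217, 216 and 151 in the Tmem161a-KO arrays, against 141, 117 and 121 in the WT arrays. Neither had overlapping groups, and Mdfi lost its call without Tmem161a-KO replicate 1 or 2 or WT replicate 2 (0.52 to 0.56). Nudt12, an NADH hydrolase, was the dimmer member furthest down, with 74.3, 96.4 and 69.2 in the Tmem161a-KO arrays, against 222, 232 and 253 in the WT arrays. All 3 of its Tmem161a-KO arrays were below background.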

How the data were processed

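RNA from 3 Tmem161a-KO and 3 WT samples was measured on Clariom S arrays. The deposited values were linear intensities, 1 column for each array, which the authors had normalized in GeneSpring. Background correction, probe summarization and genome build were not given in the sources used here. Log2 values were taken with no pseudocount. The test was limma 3.58.1 (R 4.3.3, lmFit and eBayes without covariates), with Benjamini-Hochberg adjustment over the 19571 rows with a symbol, at an adjusted p under 0.05. A difference carries limma's moderated SE. The fit was tested on simulated data. The platform's annotation gave symbols, and all 923 members matched chromosome 17 in a RefSeq gene table of GRCm38.p6, which also gave their order. The members and the 14 gene lists were chosen with earlier results of these data known.

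The common shift was the median difference of brighter members. Genes were named by rule: Tmem161a, Cdkn1a and Xdh, members departing from the shift, the 8 closest to it among the 100 brightest, the 3 neighbours on either side of Cdkn1a and Xdh, and the furthest and nearest members of each list. Further called members, and those at a distance of 0.58, were named after their values had been seen. Tried as alternatives were all rows, arrays centred on their medians or quantile normalized, a filter on dim rows (at or below the 95th percentile of olfactory receptor rows), an intensity trend, array weights, the replicate block, the methods' t-test, stricter thresholds, other definitions of brighter, and leaving out each array. With 3 arrays a group, an exact two-sided permutation test cannot go below p = 0.1. The number of arrays limits the precision. Some genes were not analysed here.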

Additional observations from a re-analysis of the deposited data

Results flagged for a closer look

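A single result was marked. Among the chromosome 17 rows without a gene symbol, which are not members, 1 row was higher in Tmem161a-KO cells than in the WT arrays. It gave 254, 309.9 and 310.4 in the Tmem161a-KO arrays, against 175, 137 and 212 in the WT arrays, a log2 difference of 0.75 (SE 0.15, limma over all 22205 rows). Over all these rows, 5.38% were called higher.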

How the results depend on the processing

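The median difference of brighter members relative to the other chromosomes was below 0 in all 11 alternatives. Since chromosome 17 was selected on these values, that sign supports nothing. Centring the arrays cannot change this relative value. It was -0.20 where brighter meant above the olfactory receptor rows, -0.25 without chromosome 14, and between -0.27 and -0.25 with an array left out. The 75 lower calls became 101 with quantile normalization and 52 with arrays centred, and the 10 higher calls 8 and 13. The lower calls became 185 by the methods' t-test unadjusted, 8 after adjustment, and 29 at an adjusted p under 0.01. The higher calls became 19, 2 and 6 under these last settings. With an array left out there were 42 to 67 lower and 6 to 10 higher calls. The fewest lower calls were 43 without WT replicate 1 and 42 without WT replicate 2, and 6 higher calls were left without Tmem161a-KO replicate 1 or WT replicate 2. Members over 1 below the shift numbered 4, or 3 to 7 with an array left out, with 7 without WT replicate 1 or WT replicate 2. Those above numbered 3 in each of these. With brighter meaning above the olfactory receptor rows they were 7 and 5, and at a distance of 0.58 they were 13 and 7. Deviations of same-numbered arrays had r = 0.072, 0.094 and 0.020, and those of different-numbered arrays had r between -0.11 and 0.040. Whether arrays were paired was not tested. The fit with the replicate block gave 82 lower and 10 higher calls. Genes close to 0 changed sign, and so did Cdsn (-0.18) and Srf (-0.15), which lay on the shift. With arrays centred, Kctd20 was at 0.0449 and Ppil1 at 0.0534, with array weights Ppil1 was at 0.0155, and with quantile normalization BC004004 was at -0.0741, Memo1 at -0.0372 and Trim39 at -0.0282. With an array left out, Cdsn ran between -0.49 and 0.16, Kctd20 -0.0539 and 0.0606, Ppil1 -0.11 and 0.12, BC004004 -0.0484 and 0.0788, Capn13 -0.21 and 0.0714, Ehd3 -0.20 and 0.0298, Memo1 -0.0874 and 0.17, Srf -0.24 and 0.00489, Pkmyt1 -0.10 and 0.13, Lonp1 -0.0736 and 0.20, Trim39 -0.00636 and 0.0915, Ubash3a -0.28 and 0.0381 and Tpsb2 -0.0393 and 0.16. None of these genes had been called. Of the other values of genes named by rule under the alternatives, 56 lost and 9 gained a call. The causes were not tested. Intensities near background limit what dimmer members can show.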
